A study of Mus musculus with 6 samples.

Results

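Polyamines are small, positively charged amines that bind nucleic acids and that dividing cells make in large amounts. Ornithine decarboxylase makes putrescine, and spermidine synthase and spermine synthase then add aminopropyl groups that S-adenosylmethionine decarboxylase supplies. Breakdown runs through acetylation by SAT1 and through oxidases, and the antizymes send ornithine decarboxylase to the proteasome. The polyamine pathway is known to lie downstream of the transcription factor MYC, which is not claimed here for each of its genes. The genes described here are the 10 named for this pathway: Odc1, Srm, Sms, Amd1, Oaz1, Oaz2, Azin1, Sat1, Smox and Paox. They were chosen by symbol among the 13839 genes of the deposited table. All 10 were found, and all 10 passed the filter on low values (at least 1 FPKM in at least 3 libraries), as did 11646 of the 13839 genes.

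PolyA RNA was sequenced, with a directional kit, from the mouse line MLL-ENL-ERtm, labelled as acute monocytic leukaemia, which carries the MLL-ENL fusion joined to an oestrogen receptor domain. The shTet1 group (3 libraries) had received a retroviral hairpin RNA in the vector pGFP-V-RS against Tet1, whose enzyme oxidises methylated cytosines, reported earlier as shTet1-a+b. The shNS group (3 libraries) had received a scramble hairpin. Both groups were transduced, selected with puromycin at 1 µg/mL and adapted to SILAC medium, so neither is untreated, and the labels describe no knockout and no separate clones. Separate cultures are not named for the replicates, so the tests measure the spread between libraries, which may be technical.

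Libraries held between 15873632 and 18592139 reads on the genes of the table, and the polyamine genes rested on 321 to 7088 reads each per library. Tet1 stood at 0.0982, 0.155 and 0.139 FPKM in shTet1 replicates 1, 2 and 3, against 0.489, 0.392 and 0.446 FPKM in shNS replicates 1, 2 and 3. FPKM are reads divided by the length of the gene and by the total reads of its library. On the first principal component of all tested genes, shTet1 replicate 3 scored 22.7, nearer to the shNS libraries (−33.2 to −29.5) than the other shTet1 libraries (35 and 35.2). The median log2 change over all tested genes was −0.13, and another scaling of the libraries, by the median of ratios, moved it by 0.12, to −0.01. Calls across all genes split into 36.5% higher and 63.5% lower, or 51.2% and 48.8% after that scaling.

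Sequences of 2 kinds are shown for reading the results: the frameshift sites of the antizyme genes, because an antizyme RNA level does not give the antizyme level, and the promoters of members that moved together. An antizyme RNA carries a stop codon, UGA, inside its coding region, and the ribosome must slip forward by a base there to make the full protein, which polyamines promote. The sites below are written as DNA, 5′ to 3′, from GENCODE transcripts on GRCm38, with the slip site and its stop codon in capitals. The Oaz1 stretch lies at chr10:80828280-80828309 (plus strand) and the Oaz2 stretch at chr9:65686257-65686286 (plus strand).
Oaz1: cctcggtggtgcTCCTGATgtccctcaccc
Oaz2: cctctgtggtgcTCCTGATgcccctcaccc
The stretches share 28 of 30 bases, and the capitals are the same in both.

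RefSeq promoter windows (GRCm38.p6, from 250 bases before to 50 after each annotated start) were found for 8 of the 10 genes, in 10 windows. Srm and Azin1 had no entry. They were searched on both strands for CACGTG, the E-box to which MYC and MAX bind, and for the GC box GGGCGG; these motifs do not overlap in the windows shown. CACGTG occurred in 1 of the 10 windows, the upstream start of Sms, where it begins 196 bases before the start, and in 7.15% of the 32851 windows of all genes. GGGCGG occurred in 8 of the 10 windows, those of 7 of the 8 genes, and in 35.7% of all windows. The windows of Paox overlap each other and so are not independent. These shares were not adjusted for GC content, which ran from 50.3% to 78% in the 10 windows. Windows of Odc1 and Sms, which were lower in shTet1, and of Sat1 and Smox, which were higher, are shown 5′ to 3′ on the gene's strand with both motifs, on either strand, in capitals. They lie at chr12:17544623-17544922 (Odc1, plus strand), chrX:157492238-157492537 (Sms, minus strand), chrX:155216400-155216699 (Sat1, minus strand) and chr2:131491612-131491911 (Smox, plus strand).
Odc1: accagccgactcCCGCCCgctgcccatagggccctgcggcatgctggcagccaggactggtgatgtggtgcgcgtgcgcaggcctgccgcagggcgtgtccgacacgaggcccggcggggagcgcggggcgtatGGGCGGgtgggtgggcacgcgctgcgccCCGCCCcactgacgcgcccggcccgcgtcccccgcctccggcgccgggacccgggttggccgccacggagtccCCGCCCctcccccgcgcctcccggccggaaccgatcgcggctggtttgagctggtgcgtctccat
Sms: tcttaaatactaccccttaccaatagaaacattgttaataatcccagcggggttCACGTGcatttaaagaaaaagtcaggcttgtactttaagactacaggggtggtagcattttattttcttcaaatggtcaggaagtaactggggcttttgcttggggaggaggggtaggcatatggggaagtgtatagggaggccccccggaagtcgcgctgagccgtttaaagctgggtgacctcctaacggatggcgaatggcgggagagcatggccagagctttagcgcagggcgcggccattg
Sat1: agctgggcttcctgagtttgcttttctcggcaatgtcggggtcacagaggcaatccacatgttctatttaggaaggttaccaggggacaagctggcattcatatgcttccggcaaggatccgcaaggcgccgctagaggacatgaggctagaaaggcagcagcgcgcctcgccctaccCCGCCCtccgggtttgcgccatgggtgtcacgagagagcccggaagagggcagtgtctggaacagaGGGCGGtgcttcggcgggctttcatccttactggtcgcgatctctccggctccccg
Smox: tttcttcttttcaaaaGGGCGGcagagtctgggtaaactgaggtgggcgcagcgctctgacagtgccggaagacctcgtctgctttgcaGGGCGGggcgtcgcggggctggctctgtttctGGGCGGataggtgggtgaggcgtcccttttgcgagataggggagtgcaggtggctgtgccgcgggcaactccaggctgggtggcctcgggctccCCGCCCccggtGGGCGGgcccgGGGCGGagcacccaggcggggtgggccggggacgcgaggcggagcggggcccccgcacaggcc
The Odc1 window held 4 GC boxes, the Smox window 6 and the Sat1 window 2, while this Sms window held 0 GC boxes and 1 E-box. The window of the other Sms start, chrX:157491319-157491618, held 4 GC boxes and 0 E-boxes. A match describes the letters of a window and shows no binding. A window without a match does not show that the gene lacks the motif, because sequence outside the windows was not searched.

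The comparison of shTet1 with shNS asks how the RNA of these genes differs when Tet1 is knocked down. All 4 synthesis genes were lower in the knockdown, and 2 of 3 breakdown genes, Sat1 and Smox, were higher. Paox, the third breakdown gene, was lower. Of the 3 genes that control ornithine decarboxylase, Oaz1 was slightly lower, and Oaz2 and Azin1 did not pass the test. That made 6 of 10 lower and 2 of 10 higher at a limma adjusted p under 0.05, where 33.7% of all tested genes were lower, 19.4% higher and 53.1% either. The share that was higher is therefore near that of all genes. The libraries of the groups did not overlap for 8 of the 10, 6 with shTet1 lower and 2 with shTet1 higher, against 61.8% of all tested genes, 39.1% lower and 22.6% higher. Over the 10 the median change was −0.37 (log2), which is −0.23 from the median of all genes.

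**Figure D1:**
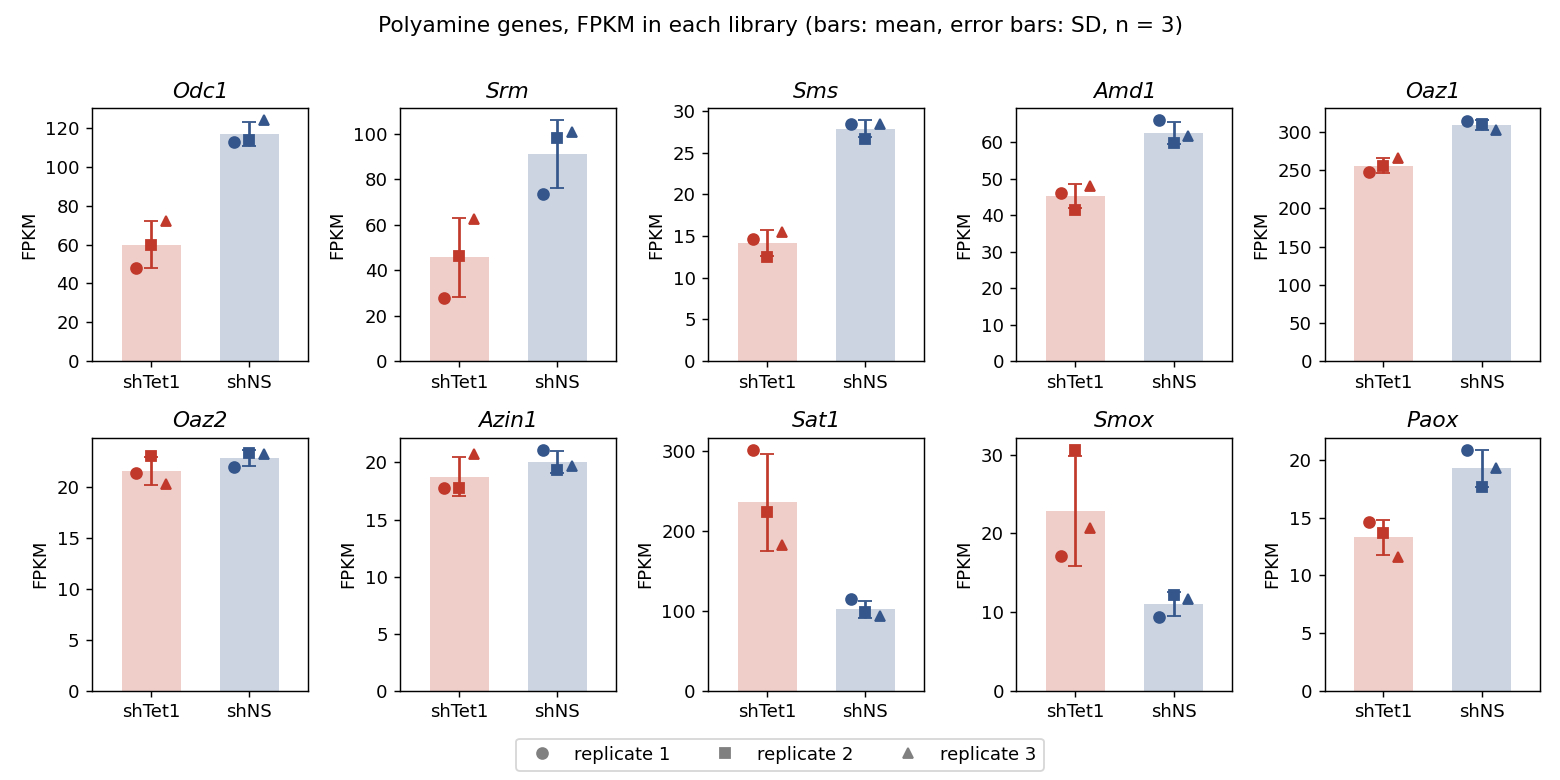
FPKM of the 10 polyamine genes in each library, with shTet1 left of shNS in each panel; bars are means, error bars SD (n = 3) and marker shapes replicate numbers. The shTet1 libraries lie below every shNS library for Odc1, Srm, Sms, Amd1, Oaz1 and Paox, above every shNS library for Sat1 and Smox, and overlap with shNS for Oaz2 and Azin1.

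Odc1 (gene ID 18263, chromosome 12, 17544808 to 17551502, GRCm38) encodes ornithine decarboxylase, the first and rate-limiting enzyme of polyamine synthesis. It stood at 48.1, 59.9 and 72.0 FPKM in shTet1 replicates 1, 2 and 3, against 113, 114 and 124 FPKM in shNS replicates 1, 2 and 3. The lowest shNS library was above the highest shTet1 library, and the shTet1 libraries spread more than those of shNS. The log2 change was −0.97 (SE 0.14, limma adjusted p = 0.000927), and the shTet1 mean was 51.3% of that in shNS. In its change, Odc1 ranked above 3.6% of all tested genes, so most genes fell less.

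Srm (gene ID 20810, chromosome 4, 148591513 to 148594619) encodes spermidine synthase, which turns putrescine into spermidine. It had 27.8, 46.5 and 62.6 FPKM in shTet1 replicates 1, 2 and 3, against 73.8, 98.3 and 101 FPKM in shNS replicates 1, 2 and 3. Replicate 1 was the lowest library in both groups, and the groups did not overlap. The log2 change of −1.04 was the largest fall among the 10 genes and also had the largest error (SE 0.27, limma adjusted p = 0.0127). It lay at −0.73 without shTet1 replicate 1 and at −1.3 without shTet1 replicate 3, past the test in both cases.

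Sms (gene ID 20603, chromosome X, 157443851 to 157492287) encodes spermine synthase, which turns spermidine into spermine. Its levels were 14.6, 12.5 and 15.5 FPKM in shTet1 replicates 1, 2 and 3, against 28.4, 26.7 and 28.5 FPKM in shNS replicates 1, 2 and 3. The libraries of each group lay close together and the groups far apart. Its log2 change was −0.93 (SE 0.10, limma adjusted p = 0.000234), with the smallest adjusted p of the 10 genes. In the ratio of Srm to Sms within a library, the groups overlapped (1.91, 3.71 and 4.04 in shTet1 against 2.60, 3.68 and 3.54 in shNS). The difference in that ratio was −0.08 on the log2 scale (exact two-sided permutation p = 1, 1 after adjustment over 8 ratios). It turned to 0.26 without shTet1 replicate 1 and to 0.01 without shNS replicate 2.

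Amd1 (gene ID 11702, chromosome 10, 40287458 to 40302188) encodes S-adenosylmethionine decarboxylase, whose product gives both synthases their aminopropyl group. It had 46.2, 41.5 and 48.0 FPKM in shTet1 replicates 1, 2 and 3, against 66.0, 59.9 and 61.8 FPKM in shNS replicates 1, 2 and 3. The groups did not overlap, but the fall (log2 change −0.46, SE 0.09, limma adjusted p = 0.00291) was smaller than those of the other synthesis genes. Amd1 and its near copy Amd2 had the same number of reads in every library, from 2372 to 2675 in shTet1 and from 3238 to 3939 in shNS. The fall cannot be assigned to Amd1 alone, and the 2 genes are a single measurement. RefSeq also lists pseudogene copies of Amd1, Oaz1, Oaz2 and Sms, with which reads could be shared.

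Oaz1 (gene ID 18245, chromosome 10, 80826656 to 80829290) encodes antizyme 1, which binds ornithine decarboxylase and sends it for degradation. It had the highest mean per length of the 10 RNAs in both groups, although Sat1 was above it in shTet1 replicate 1. Its levels were 247, 255 and 266 FPKM in shTet1 replicates 1, 2 and 3, against 314, 311 and 302 FPKM in shNS replicates 1, 2 and 3. Every shTet1 library was below every shNS library, by a small margin. The log2 change was −0.27 (SE 0.07, limma adjusted p = 0.0145), or −0.14 relative to all genes. The call did not hold with median-of-ratios scaling or limma-voom (log2 change −0.14 in both, adjusted p 0.164 and 0.174). It was also lost without shTet1 replicate 2 (limma adjusted p 0.0506) and without shNS replicate 1, 2 or 3 (0.0536, 0.0591 and 0.051). At the frameshift site shown above, the protein made from this RNA can change with no change in its level, and these data do not measure that.

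Oaz2 (gene ID 18247, chromosome 9, 65676548 to 65690300), the second antizyme gene, had 21.4, 23.1 and 20.3 FPKM in shTet1 replicates 1, 2 and 3, against 22.0, 23.4 and 23.3 FPKM in shNS replicates 1, 2 and 3. The groups overlapped. Its log2 change of −0.08 (SE 0.08, limma adjusted p = 0.415) became 0.05 under limma-voom and also under median-of-ratios scaling. Azin1 (gene ID 54375, chromosome 15, 38487430 to 38519294) encodes antizyme inhibitor 1, a relative of ornithine decarboxylase without its activity that binds antizyme and so frees the enzyme. It had 17.8, 17.8 and 20.7 FPKM in shTet1 replicates 1, 2 and 3, against 21.1, 19.3 and 19.7 FPKM in shNS replicates 1, 2 and 3. shTet1 replicate 3 lay within the shNS range. Its log2 change of −0.09 (SE 0.09, limma adjusted p = 0.418) became 0.04 with either of those alternatives. An antisense gene on the other strand covers 5.7% of the exonic bases of Azin1, and although the kit keeps strand, the strand setting of the counting is not given in the sources used here.

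Sat1 (gene ID 20229, chromosome X, 155213126 to 155216449) encodes spermidine/spermine N1-acetyltransferase, which starts breakdown and export by acetylating spermidine and spermine. It stood at 301, 223 and 182 FPKM in shTet1 replicates 1, 2 and 3, against 114, 98.1 and 93.6 FPKM in shNS replicates 1, 2 and 3. All shTet1 libraries were above all shNS libraries, and shTet1 replicate 1 was the highest. With a log2 change of 1.17 (SE 0.17, limma adjusted p = 0.00107), the mean in shTet1 was 2.31 times that in shNS. Its change ranked above those of 96.8% of all tested genes.

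Smox (gene ID 228608, chromosome 2, 131491858 to 131525183) encodes spermine oxidase, which turns spermine back into spermidine and gives off hydrogen peroxide. Levels were 17.1, 30.6 and 20.7 FPKM in shTet1 replicates 1, 2 and 3, against 9.32, 12.1 and 11.6 FPKM in shNS replicates 1, 2 and 3. In both groups replicate 2 was the highest and replicate 1 the lowest. The log2 change was 0.96 (SE 0.20, limma adjusted p = 0.00497), a mean 2.07 times that in shNS.

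Paox (gene ID 212503, chromosome 7, 140115735 to 140134334) encodes the peroxisomal oxidase that acts on acetylated polyamines, the step after SAT1. It had 14.6, 13.7 and 11.6 FPKM in shTet1 replicates 1, 2 and 3, against 20.9, 17.7 and 19.3 FPKM in shNS replicates 1, 2 and 3. The groups did not overlap. Its log2 change was −0.51 (SE 0.11, limma adjusted p = 0.00548), in the opposite direction to Sat1 and Smox. Exons of Echs1, on the other strand, cover 2.9% of the exonic bases of Paox.

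By the group mean, the levels of the 10 RNAs per length came in a different order in the groups. In shTet1 the order of the means was Oaz1, Sat1, Odc1, Srm, Amd1, Smox, Oaz2, Azin1, Sms and Paox, and in shNS it was Oaz1, Odc1, Sat1, Srm, Amd1, Sms, Oaz2, Azin1, Paox and Smox. By the median instead, Oaz2 (21.4 FPKM) was above Smox (20.7 FPKM) in shTet1, and Srm (98.3 FPKM) above Sat1 (98.1 FPKM) in shNS. Sat1 stood clear of Odc1 in shTet1 (182 to 301 against 48.1 to 72.0 FPKM), while in shNS their ranges overlapped (93.6 to 114 against 113 to 124 FPKM). Smox was the lowest of the 10 in shNS and overlapped with Oaz2 in shTet1. Among neighbours, the ranges of Oaz1 and Sat1, of Odc1 and Srm, of Srm and Amd1, of Oaz2 and Azin1, and of Sms and Paox also overlapped in shTet1. In shNS those of Sat1 and Srm and of Azin1 and Paox did. Summed over the 4 synthesis genes, the level was 137, 161 and 198 FPKM in shTet1 replicates 1, 2 and 3, against 282, 299 and 315 FPKM in shNS replicates 1, 2 and 3. Summed over Sat1, Smox and Paox, it was 332, 267 and 215 FPKM in shTet1, against 144, 128 and 124 FPKM in shNS, in the same order. Most of that sum was Sat1, and Paox was lower in shTet1.

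A ratio of 2 genes within a library does not depend on how libraries are scaled. For Sat1 to Odc1 it was 6.25, 3.73 and 2.53 in shTet1 replicates 1, 2 and 3, against 1.00, 0.860 and 0.757 in shNS replicates 1, 2 and 3. Every shTet1 library was above every shNS library, and the difference of 2.16 on the log2 scale is a 4.48-fold higher ratio. The exact two-sided permutation test gave p = 0.1, the smallest that 3 against 3 libraries allows, and 0.16 after adjustment over the 8 ratios computed. The groups also stood apart in the ratio of Smox to Paox (1.17, 2.24 and 1.78 in shTet1 against 0.447, 0.683 and 0.6 in shNS; log2 difference 1.56; exact permutation p = 0.1, adjusted 0.16). In both ratios the 2 genes already stood apart between groups, in opposite directions. The ratios therefore had to stand apart too. Sat1 and Smox kept no fixed ratio to each other (17.6, 7.31 and 8.79 in shTet1 against 12.2, 8.11 and 8.10 in shNS; log2 difference 0.16; exact permutation p = 0.8, adjusted 0.914), and that difference was −0.21 without shTet1 replicate 1.

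Other ratios set Odc1 beside its control genes Oaz1 and Azin1, and those control genes beside each other. They compare RNA levels and do not measure the proteins. Odc1 to Oaz1 was 0.195, 0.235 and 0.271 in shTet1 replicates 1, 2 and 3, against 0.361, 0.366 and 0.409 in shNS replicates 1, 2 and 3 (log2 difference −0.71, exact permutation p = 0.1, adjusted 0.16). Odc1 to Azin1 was 2.70, 3.36 and 3.49 in shTet1, against 5.37, 5.91 and 6.27 in shNS (log2 difference −0.89, exact permutation p = 0.1, adjusted 0.16). Azin1 to Oaz1 differed little, at 0.0723, 0.07 and 0.0777 in shTet1 against 0.0672, 0.0620 and 0.0653 in shNS (log2 difference 0.18, exact permutation p = 0.1, adjusted 0.16), although the groups did not overlap. The ratio of Oaz1 to Oaz2, at 11.5, 11.1 and 13.1 in shTet1 against 14.3, 13.3 and 13.0 in shNS, overlapped between groups (exact permutation p = 0.2, adjusted 0.267).

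**Figure D2:**
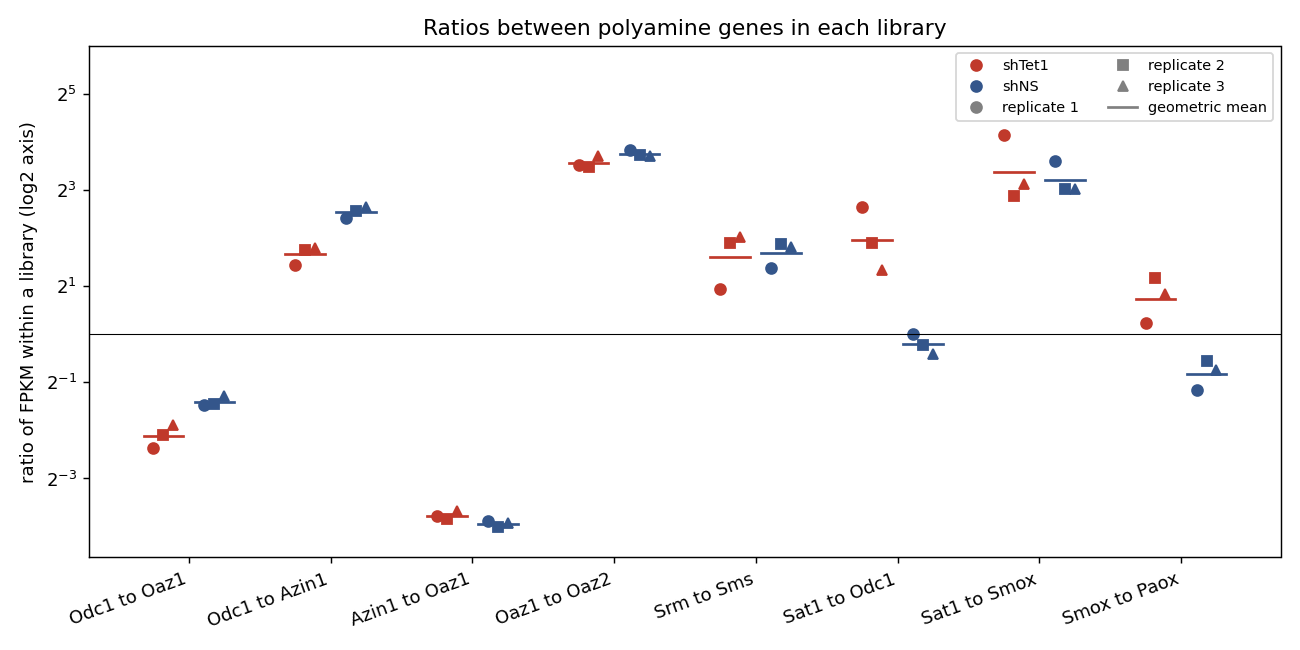
Ratios of FPKM between polyamine genes within each library, on a log2 axis, with shTet1 (red) left of shNS (blue); lines are geometric means and shapes replicate numbers. Sat1 to Odc1, Smox to Paox and, by a small margin, Azin1 to Oaz1 are higher in every shTet1 library. Odc1 to Oaz1 and Odc1 to Azin1 are lower, and Srm to Sms, Sat1 to Smox and Oaz1 to Oaz2 overlap.

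The shTet1 libraries differed among themselves in size of change but seldom in direction. Measured from the shNS mean on the log2(FPKM + 1) scale, replicates 1, 2 and 3 of shTet1 lay at −1.26, −0.95 and −0.69 for Odc1 and at −1.66, −0.94 and −0.52 for Srm. For Sat1 they lay at 1.56, 1.13 and 0.84. In these 3 genes, replicate 3 was the nearest to shNS and replicate 1 the farthest. Oaz1 had the same order over a smaller range (−0.32, −0.28 and −0.22). The other members that passed the test had another order. Smox was farthest in replicate 2 (1.40, against 0.60 in replicate 1), and Paox farthest in replicate 3 (−0.68, against −0.37 in replicate 1). Sms varied least among the genes that changed by more than 0.9, between −1.09 and −0.81. Without both replicate 1 libraries, which also set the low end of Srm and Smox in shNS, the log2 changes were −0.84 for Odc1, −0.87 for Srm, 1.07 for Sat1 and 1.03 for Smox.

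**Figure D3:**
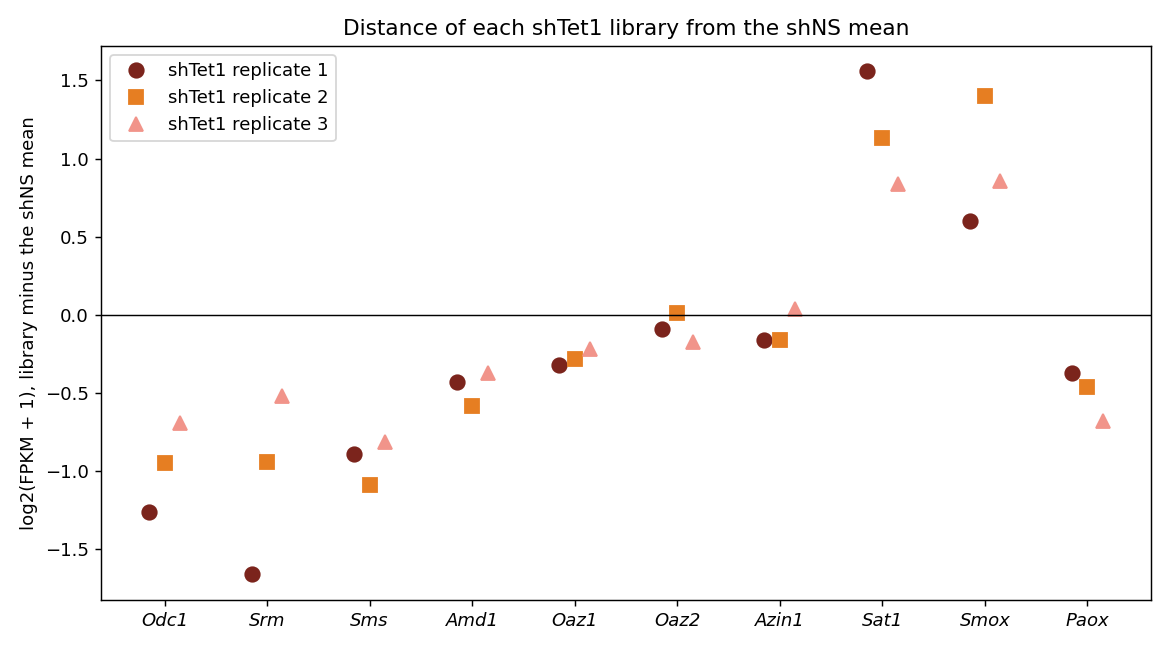
Distance of each shTet1 library from the shNS mean on the log2(FPKM + 1) scale for the 10 polyamine genes, with a shape and colour for each replicate. Replicate 1 lies farthest from 0 for Odc1 (−1.26), Srm (−1.66) and Sat1 (1.56), replicate 2 for Smox (1.40) and replicate 3 for Paox (−0.68).

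The genes most like Odc1 across the 6 libraries, by the root mean square difference of log2 values centred on each gene's mean, were Ticrr (0.031), 2410002F23Rik (0.038) and Apex1 (0.052). Ticrr acts at the start of DNA replication and Apex1 in base excision repair. For Sat1 they were Mtus1 (0.039), Gpr141 (0.040) and Gm10825 (0.063). Mtus1, for instance, had 27.7, 20.8 and 16.9 FPKM in shTet1 replicates 1, 2 and 3, against 9.57, 8.61 and 8.5 FPKM in shNS replicates 1, 2 and 3, the same order as Sat1.

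Of 35 other genes of polyamine metabolism, 24 were in the table and 23 passed the filter. Among these 23, 11 were lower and 3 higher by the limma test (median −0.31 on the log2 scale, −0.18 after subtracting that of all genes), and without Amd2, which repeats Amd1, 10 were lower and 3 higher among 22. Of all tested genes 33.7% were lower and 19.4% higher, so the share of these genes that was higher was not above that of all genes. The number lower was 7 with median-of-ratios scaling and 7 without shNS replicate 3. The falls lay mostly in the methionine cycle and the salvage of methylthioadenosine, the by-product of both synthases. There 7 of 8 were lower and 0 higher (median −0.56, or −0.43 relative to all genes). That count was 4 lower and 1 higher under median-of-ratios scaling, 5 lower under limma-voom, and 4 lower without shTet1 replicate 2 or without shNS replicate 3.

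Mat2a, the subunit that makes S-adenosylmethionine, had 68.0, 93.9 and 112 FPKM in shTet1 replicates 1, 2 and 3, against 138, 155 and 156 FPKM in shNS replicates 1, 2 and 3. Its groups did not overlap, and its log2 change was −0.74 (SE 0.17, limma adjusted p = 0.00749). Ahcy, which hydrolyses S-adenosylhomocysteine, averaged 41.0 ± 5.66 FPKM in shTet1 and 82.2 ± 2.43 FPKM in shNS (SD, n = 3 each; log2 change −0.99, limma adjusted p = 0.000249). Mtap, the phosphorylase that starts methylthioadenosine salvage, averaged 11.5 ± 2.70 FPKM in shTet1 and 19.8 ± 0.548 FPKM in shNS (−0.75, limma adjusted p = 0.00378). The later salvage genes Mri1 (−0.59) and Enoph1 (−0.52) were also lower (limma adjusted p 0.0034 and 0.0194), as was Mat2b, a regulatory subunit (−0.31, limma adjusted p 0.0237). Enoph1 did not pass (limma adjusted p 0.0556) under median-of-ratios scaling, nor without shTet1 replicate 2 or shNS replicate 3 (0.0537 and 0.062). Mat2b did not pass under limma-voom or median-of-ratios scaling (0.144 in both), without shTet1 replicate 2 or 3 (0.0649 and 0.0549) and without shNS replicate 1 or 3 (0.0825 and 0.0683). Adi1, another salvage gene, was lower (−0.35, limma adjusted p 0.0186) but did not pass under median-of-ratios scaling (0.102), under limma-voom (0.0972), without shTet1 replicate 2 (0.058) or without shNS replicate 2 or 3 (0.0624 and 0.0764).

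**Figure D4:**
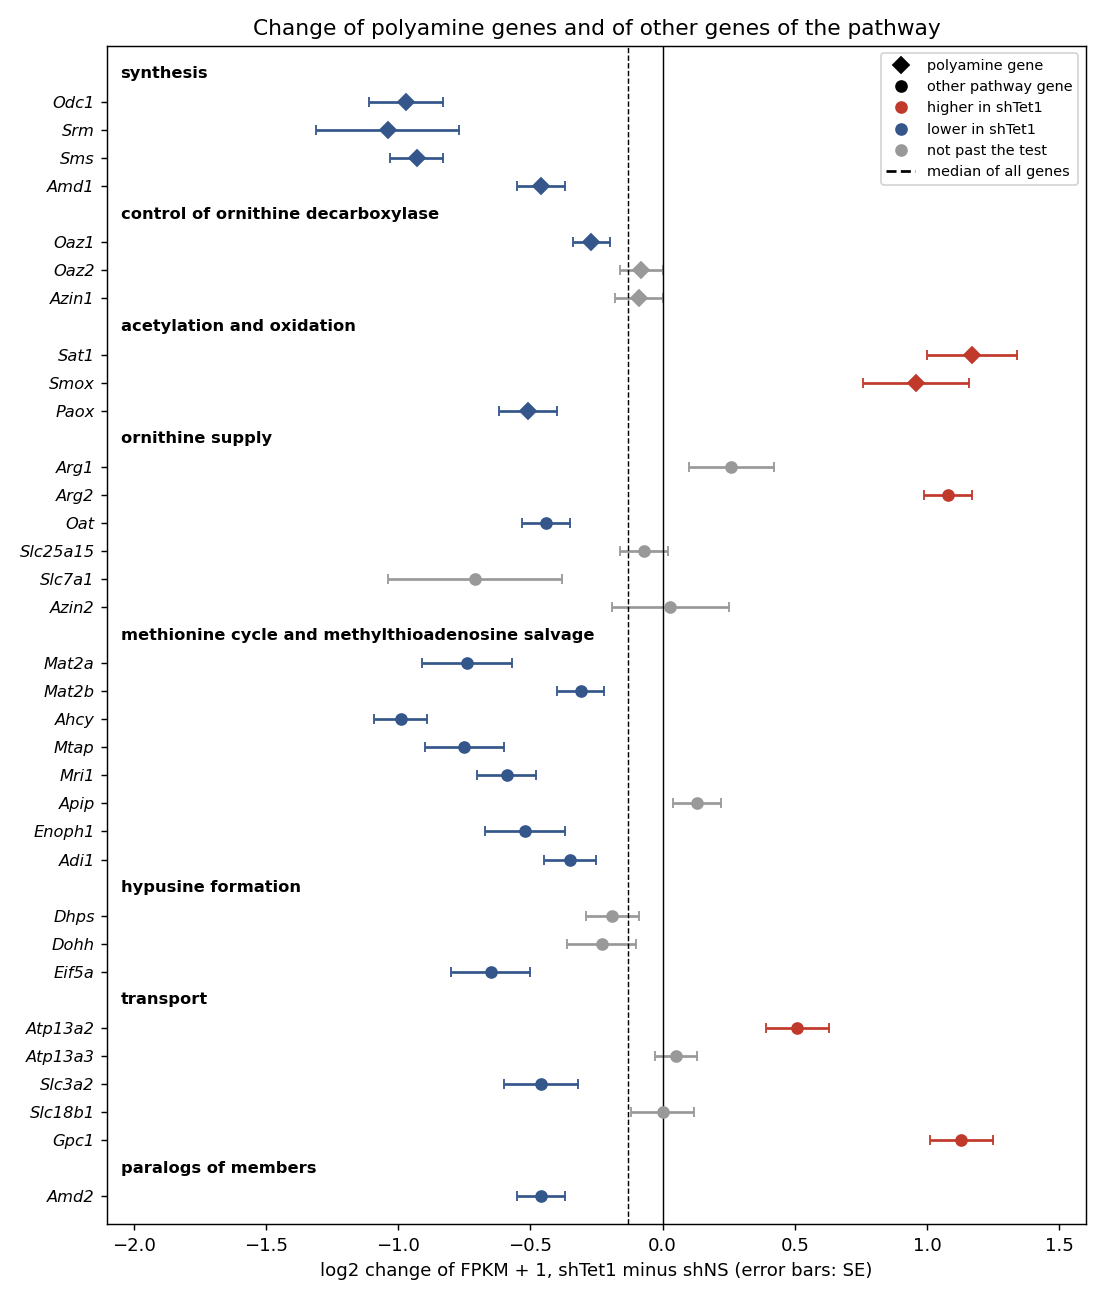
Log2 change of FPKM + 1 (shTet1 minus shNS, error bars SE from limma) of the 10 polyamine genes (diamonds) and of 23 other genes of the pathway (circles), grouped by role; the dashed line is the median of all tested genes, −0.13. The synthesis genes and most salvage genes lie left of that line, and Sat1, Smox, Arg2, Atp13a2 and Gpc1 are the genes past the test to the right of 0.

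Of 6 genes of ornithine supply, 1 was higher and 1 lower, where 19.4% of all tested genes were higher and 33.7% lower. Arg2, the mitochondrial arginase, had 10.9, 11.4 and 9.82 FPKM in shTet1 replicates 1, 2 and 3, against 4.59, 4.23 and 4.80 FPKM in shNS replicates 1, 2 and 3 (log2 change 1.08, SE 0.09, limma adjusted p = 0.000116). Oat, which takes ornithine the other way, towards proline and glutamate, was lower (−0.44, limma adjusted p = 0.00484). Arg1, the cytosolic arginase, averaged 16.4 ± 1.69 FPKM in shTet1 and 13.7 ± 3.28 FPKM in shNS (0.26, limma adjusted p = 0.195). It passed with the replicate number as a block (limma adjusted p 0.0458) and without shNS replicate 1 (0.0287) or both replicate 1 libraries (0.0289). Slc7a1, a carrier of arginine and ornithine, had 11.3, 23.5 and 31.1 FPKM in shTet1 replicates 1, 2 and 3, against 25.9, 39.9 and 37.3 FPKM in shNS replicates 1, 2 and 3. As with Srm, replicate 1 was the lowest in both groups. Its log2 change of −0.71 did not pass the test (limma adjusted p = 0.105), but did with the replicate block (0.00784), without shTet1 replicate 3 (−1.0, limma adjusted p 0.0324) and without both replicate 1 libraries (−0.50, limma adjusted p 0.0162). Without shTet1 replicate 1 it was −0.31 (limma adjusted p 0.186).

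Spermidine also serves to make hypusine, an amino acid found in the translation factor eIF5A. Eif5a itself was lower, with 249, 306 and 391 FPKM in shTet1 replicates 1, 2 and 3, against 453, 511 and 499 FPKM in shNS replicates 1, 2 and 3 (log2 change −0.65, SE 0.15, limma adjusted p = 0.00919). The enzymes of the modification, Dhps and Dohh, changed by −0.19 and −0.23 and did not pass the test (limma adjusted p 0.136 and 0.17), although Dohh did without shTet1 replicate 3 (0.0308). Among 5 transport genes, 2 were higher and 1 lower, beside 19.4% higher and 33.7% lower of all tested genes. Gpc1, a heparan sulphate proteoglycan linked to polyamine uptake, averaged 17.3 ± 2.47 FPKM in shTet1 and 7.33 ± 0.623 FPKM in shNS (1.13, SE 0.12, limma adjusted p = 0.000237). Atp13a2, the lysosomal polyamine exporter, averaged 43.4 ± 5.04 FPKM in shTet1 and 30.1 ± 3.64 FPKM in shNS (0.51, limma adjusted p = 0.0084). Atp13a3, a related transporter, was at 29.7 ± 2.46 FPKM in shTet1 and 28.6 ± 0.642 FPKM in shNS (0.05, limma adjusted p = 0.64; −0.01 without shTet1 replicate 3). Slc3a2 was lower (−0.46, limma adjusted p = 0.0223) but failed the test under limma-voom (0.0732), under median-of-ratios scaling (0.0929) and when shNS replicate 2 or 3 was left out (0.072 and 0.0771).

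Of the MYC network, Myc was at 42.7, 40 and 44.2 FPKM in shTet1 replicates 1, 2 and 3, against 83.0, 79.0 and 73.5 FPKM in shNS replicates 1, 2 and 3, and its log2 change was −0.88. The shTet1 libraries were close together for Myc, between −0.95 and −0.81 from the shNS mean on the log2(FPKM + 1) scale, while those for Odc1 and Srm were spread. Those for the other synthesis genes were less spread, between −1.09 and −0.81 for Sms and between −0.58 and −0.37 for Amd1. Mycn changed by −2.56, to 2.32 ± 0.173 FPKM in shTet1 against 18.6 ± 1.92 FPKM in shNS (SD, n = 3 each). Among MAX and its other partners, Mxi1, a repressor, was higher (0.44, limma adjusted p = 0.0174), but not when shNS replicate 2 or 3 was left out (0.0612 and 0.0686). Max (−0.16), Mxd1 (−0.15), Mxd4 (0.15) and Mnt (−0.02) did not pass the test (limma adjusted p 0.184, 0.418, 0.243 and 0.923). Under median-of-ratios scaling Mxd4 passed (0.28, limma adjusted p 0.0382) and Mnt changed sign (0.10). Whether the polyamine genes changed because of Myc was not tested.

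Other markers moved with the groups, and in bulk RNA a different mix of cells and a different level per cell cannot be told apart. All 9 macrophage markers were higher in shTet1, with summed levels of 10820 to 16515 FPKM in shTet1 against 3176 to 3667 FPKM in shNS, most of it Lyz2. All 8 proliferation genes were lower, with summed levels of 429 to 538 FPKM in shTet1 against 779 to 834 FPKM in shNS. Their part in the changes of Sat1, Odc1 and the others was not tested. All 7 myeloid markers were present in every library, 3 of them higher and 3 lower in shTet1. Beside these counts of markers, 19.4% of all tested genes were higher and 33.7% lower. Ptprc (log2 change 0.70), Itgam (1.19) and Spi1 (0.61) were higher. Mpo was lower, at 686 to 888 FPKM in shTet1 against 1407 to 1553 FPKM in shNS, as were Hoxa9 (−0.31) and Meis1 (7.36 to 8.72 FPKM in shTet1 against 16.3 to 17.5 FPKM in shNS), while Cebpa (−0.10) did not pass the test. Markers of other lineages were low, with summed levels of at most 3.64 FPKM for T and NK cells (2 of 5 genes listed), 0.535 for B cells (1 of 4), 3.85 for erythroid cells (4 of 5) and 0.224 for fibroblasts (1 of 4). Of these only Lck passed the filter, and it was lower in shTet1 (0.338 to 0.888 FPKM against 2.3 to 2.82 FPKM in shNS). Its log2 change was −1.24 (limma adjusted p = 0.000462). Without overlap between groups, the sums were lower in shTet1 for T and NK, B and erythroid cells and higher for fibroblasts. The groups also did not overlap for 61.8% of all tested genes, and these sums rest on few reads. That for B cells is Cd79a alone (5 to 12 reads per library), and that for fibroblasts Pdgfrb alone (12 to 22 reads). The erythroid sum counts the same reads for Hbb-bs and for Hbb-b1.

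In the authors' deposited table the same comparison, on another scaling, had log2 changes of −0.83 for Odc1, −0.87 for Srm, −0.84 for Sms, −0.34 for Amd1, 1.34 for Sat1, 1.19 for Smox and −0.40 for Paox, all with a deposited adjusted p under 0.05. For Oaz1, Oaz2 and Azin1, the authors' deposited table gave −0.14, 0.05 and 0.04, with adjusted p of 0.33, 0.789 and 0.823. Both therefore have the synthesis genes and Paox lower and Sat1 and Smox higher, and they differ in the call of Oaz1.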

How the data were processed

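The authors deposited a single table with 6 columns of values, 1 per library, taken as FPKM from the values because no header names the unit; all 6 matched a sample title. Per the file headers, the authors also gave a mean signal per group, a fold change (ratio) with its log2, and a p-value before and after adjustment; these are quoted only where named. GRCm38 is the build in the submitters' processing notes. The aligner, the counter and the test used upstream were not given in the sources used here. Read numbers were recovered from the FPKM and the deposited means, and 100.0% came out whole to within 0.05 read. The lowest deposited mean was 4.0 reads per size factor, so rarer genes were not analysed here.

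limma 3.58.1 (R 4.3.3), with an intensity trend, was fitted to log2(FPKM + 1) of genes that reached 1 FPKM in 3 or more libraries, group as the sole term, Benjamini-Hochberg adjusted over all genes tested, two-sided, threshold 0.05; fold changes of low genes are understated on this scale. Ratios between genes used exact permutation tests (SciPy). The scripts were tested on simulated data. Alternatives were median-of-ratios scaling, pseudocounts of 0.1 and 0.5, no filter or 5 FPKM, limma-voom on the recovered reads (at least 10 in at least 3 libraries), no trend, the replicate block, leaving out each library or both replicate 1 libraries and, chosen after seeing the data, both replicate 3 libraries. Same-numbered libraries deviated together (correlations across genes 0.61, 0.36 and 0.21 for numbers 1, 2 and 3, each above 0.1), so the replicate block was read as a paired fit, as an alternative to the group-only fit; shTet1 replicate 3 correlated more with shNS replicate 2 (0.34) than with its own number. Precision is limited by 3 libraries a group.

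The members and lists were chosen with earlier results of these data known. Values are given for all members, for the 3 most expressed pathway genes of each role, for called pathway genes that changed by at least 0.5, and for 3 genes most like Odc1 and Sat1; Adi1 was added after its values were seen, and other pathway genes are only counted or plotted. Symbols and positions came from RefSeq (GRCm38.p6) by gene ID; 34 symbols that were blank or read as dates were resolved that way.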

Additional observations from a re-analysis of the deposited data

How the results depend on the processing

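Among the 10 polyamine genes, 9 kept their side of the test under every alternative run; the exception was Oaz1. Its log2 change was −0.14 under limma-voom on recovered reads and under median-of-ratios scaling, and lay between −0.3 and −0.25 when single libraries were left out. Oaz2 and Azin1, which never passed, turned to 0.05 and 0.04 with both of those alternatives. The number of polyamine genes lower was 5 or 6 and the number higher 2 throughout. The number of other pathway genes lower was 7 with median-of-ratios scaling and between 7 and 12 with single libraries left out. With the replicate block, 2692 genes were higher and 4780 lower, and of the polyamine genes 2 and 6, so that block changed the call of no member. The log2 difference in the ratio of Srm to Sms ran from −0.28 to 0.26 with single libraries left out and was 0.1 without both replicate 1 libraries. That of Sat1 to Smox ran from −0.21 to 0.42 and was −0.02 without both. Among genes outside the 10, near-zero changes also turned sign: Mnt to 0.11 with limma-voom, 0.1 with median-of-ratios scaling, 0.03 without both replicate 1 libraries and 0.0 without both replicate 3 libraries, and up to 0.15 without 1 library; Mxd1 to 0.08 without both replicate 3 libraries; and Atp13a3 to −0.01. Without both replicate 3 libraries, Atp13a2 (limma adjusted p 0.0772), Mat2b (0.132), Slc3a2 (0.0577) and Mxi1 (0.0533) did not pass. The causes were not tested. The members had at least 321 reads in each library, while Tet1 rested on few (25 to 39 in shTet1 and 93 to 128 in shNS). An effect of depth on the calls was not tested.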
